A study of Mus musculus with 10 samples.

Results

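Collagen chains are the subunits of the most abundant structural proteins of connective tissue, and 42 genes for them were measured in the mouse cochlea. They were taken by name, as every gene whose symbol on the array platform is Col, a type number, a and a chain number. This was out of 18193 genes that had a probe set naming only them. The family was chosen with earlier results of these data known. RNA came from cochleae of male mice aged 9 months. Of 10 samples, 5 were from wild-type mice (Polg+/+) and 5 from mice homozygous for the D257A form of Polg (PolgD257A/D257A), the gene for the enzyme that copies mitochondrial DNA. The D257A form lacks proofreading, so mutations accumulate in mitochondrial DNA of all tissues, not of the cochlea alone. The labels do not say whether each sample came from a separate animal or from a pool, and the design text says that there were no replicates. The 5 arrays of a genotype are treated here as its replicates, and p-values measure only the spread between these samples, which may be technical. The study asked which cochlear transcripts differ when such mutations accumulate. These are bulk samples, in which fewer cells of a type and less RNA per cell cannot be told apart.

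Collagen chains wind around each other into rope-like trimers. Fibrillar collagens (types I, II, III, V and XI) pack into the fibrils that give bone, tendon, dermis and cartilage their strength, while type IV forms the sheet-like network of basement membranes, which line epithelia, nerves and the capillaries of the stria vascularis. Mutations in cartilage-type chains (Col2a1, Col11a1, Col11a2, Col9a1) and in basement membrane chains (Col4a3, Col4a4, Col4a5) are known causes of hearing loss, and type II collagen is a main fibre of the tectorial membrane.

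Of 7 tested fibrillar chains of soft tissue and bone 4 fell in D257A cochleae, and the other classes held no chain that passed the test. Signals are linear array intensities and were compared as log2(signal + 16). Each chain was read from the brightest of its probe sets, and it was tested where that probe set lay in the brighter part of the array, from a mean signal of about 577 upwards. A chain was called if its adjusted p in limma, fitted over all tested probe sets, was under 0.05. Of the 42 chains 30 were tested and 4 were called lower, namely Col1a1, Col1a2, Col3a1 and Col5a2. Over all 11871 tested genes, 1.66% were called lower. No chain was called higher, against 0.657% of all tested genes. At an unadjusted p under 0.05 with a fold change over 1.1, cut-offs that the study's design text names beside a false discovery rate, 10 chains were lower and 3 higher, against 10.2% and 6.49% of all tested genes. The lower ones beyond the called chains were Col4a1, Col4a2, Col15a1, Col6a3, Col8a2 and Col14a1, and the higher ones were Col27a1, Col4a6 and Col8a1. All D257A signals lay below all wild-type signals in 7 of the 30 tested chains, against 3.52% of tested genes, and all lay above in 1 (Col27a1), against 1.77%. Log2 fold changes (D257A minus wild-type) were negative in 24 of the 30 tested chains, with a median of -0.26, where 52.9% of all tested genes were negative with a median of -0.0223. When arrays were centred on their medians, which moved the median of all tested genes to -0.123, the chains' median was -0.361 and 26 were negative, against 65.8% of all tested genes.

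**Figure D1:**
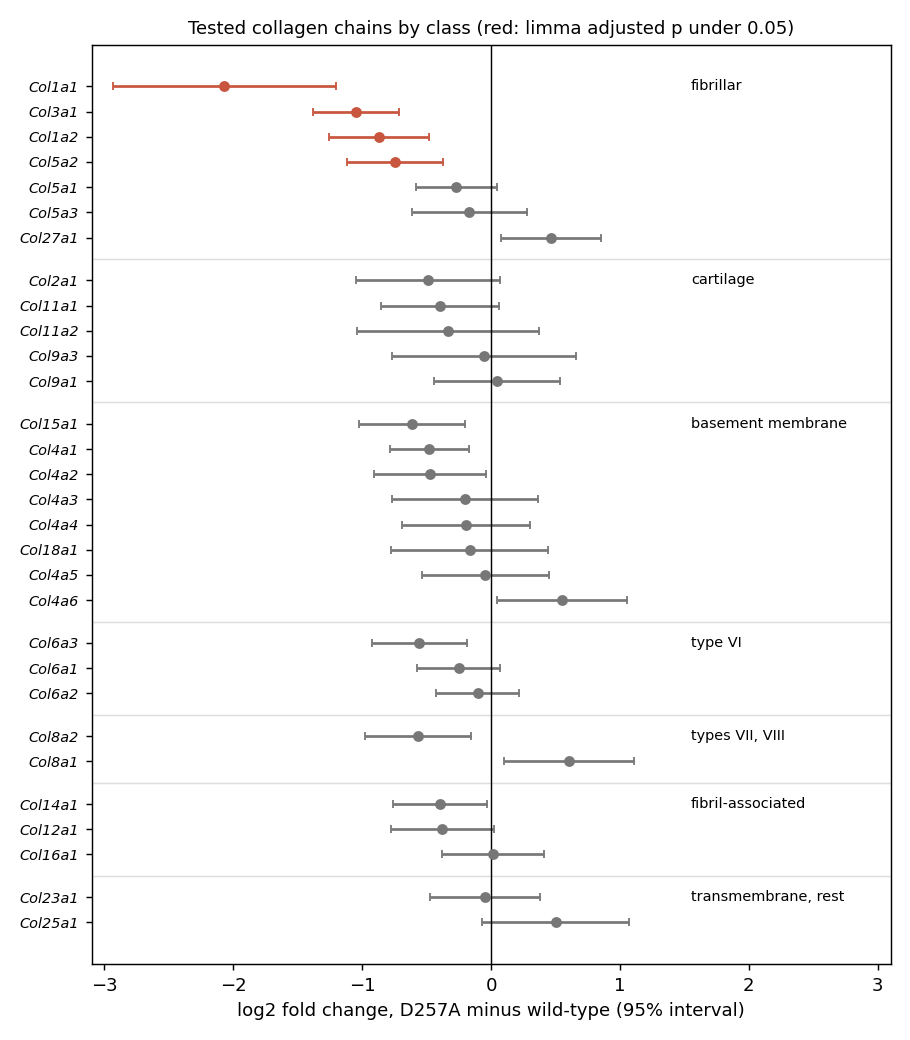
Log2 fold change (D257A minus wild-type, horizontal axis) with its 95% interval from limma for the 30 tested collagen chains, grouped by class, n = 5 arrays per genotype. The 4 called chains (red) are all fibrillar, and Col1a1 lies farthest from 0 at -2.07.

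The arrays were alike in scaling but not in all else. Median signals were 551.7 to 649.3, and correlations of log2 signals between arrays ranged from 0.854 to 0.951. Wild-type replicate 3 and D257A replicate 2 correlated least with their own groups (mean r of 0.914 and 0.89). Without both of these arrays the same 4 chains were called and no other. Cochlear identity was plain on every array: Coch, the main secreted protein of spiral ligament fibrocytes, had a mean signal of 74290 ± 6934 in wild-type against 68700 ± 8933 for D257A (SD, n = 5 each; limma adjusted p = 0.705), and none of the 12 tested cochlear markers was called. The hair cell motor gene Slc26a5 was too dim to be tested.

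Col1a1 encodes the main chain of type I collagen, the fibril of bone, tendon and dermis. Its wild-type signals were 15846, 23643.9, 9570.3, 18298.9 and 29600.2 in replicates 1 to 5, and its D257A signals were 2678, 1917.9, 5710.3, 8177.3 and 6128.8. The groups did not overlap, with wild-type replicate 3 the lowest of its group and D257A replicate 2 the lowest of all. Col1a1 fell by 2.07 on the log2 scale, a 4.2-fold difference (SE 0.40, limma adjusted p = 0.0196). Dropping single arrays cost Col1a1 its call in 3 of 10 cases: wild-type replicate 2 (adjusted p = 0.0619), wild-type replicate 5 (0.0625) and D257A replicate 1 (0.0505). In these 3 fits 75, 76 and 125 of all tested genes were called lower, in place of 197 with every array.

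Col1a2 encodes the partner chain of type I collagen. It measured 28101.8, 38561.3, 22539.2, 30574 and 40851.8 in wild-type replicates 1 to 5 and 17521.9, 16375.6, 15894.2, 21430.7 and 15421.6 in D257A. D257A replicate 4 came nearest to the wild-type range, whose lowest array was replicate 3, but no values crossed. Col1a2 fell by 0.87 on the log2 scale, or 1.82-fold (SE 0.18, limma adjusted p = 0.0273). Its call went in 6 of 10 cases when a single array was dropped: wild-type replicate 2 (0.0892), 4 (0.0622) or 5 (0.08), or D257A replicate 1 (0.0582), 3 (0.056) or 5 (0.0666). In these fits 75 to 148 of all tested genes were called lower, in place of 197.

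Col3a1 encodes type III collagen, which accompanies type I in vessels, nerve sheaths and loose connective tissue. Its wild-type signals were 11278.1, 13219.2, 13715.7, 11191.1 and 11677.9, and its D257A signals 5676.3, 5700.8, 5498.2, 7884.4 and 4998.9. Wild-type values spanned a narrow range and D257A replicate 4 stood above the other D257A arrays. Col3a1 fell by 1.05 on the log2 scale, or 2.07-fold (SE 0.15, limma adjusted p = 0.00486), and it stayed called whichever of the 10 arrays was dropped (adjusted p from 0.00263 to 0.025).

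Col5a2 encodes a chain of type V collagen, which is buried inside type I fibrils and sets their diameter. It measured 4877.9, 4714.9, 4903.2, 4338.8 and 4484.3 in wild-type and 3162.1, 3856, 2288.9, 2664.3 and 2227.6 in D257A. Its wild-type arrays were close together, its D257A arrays spread wider, and the groups did not meet. Col5a2 fell by 0.74 on the log2 scale, or 1.67-fold (SE 0.17, limma adjusted p = 0.0454). This call was the least steady: dropping any array but D257A replicate 2 ended it (9 of 10 cases), and the highest adjusted p, 0.119, came when wild-type replicate 2 was dropped. In those 9 fits 75 to 197 of all tested genes were called lower, in place of 197.

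**Figure D2:**
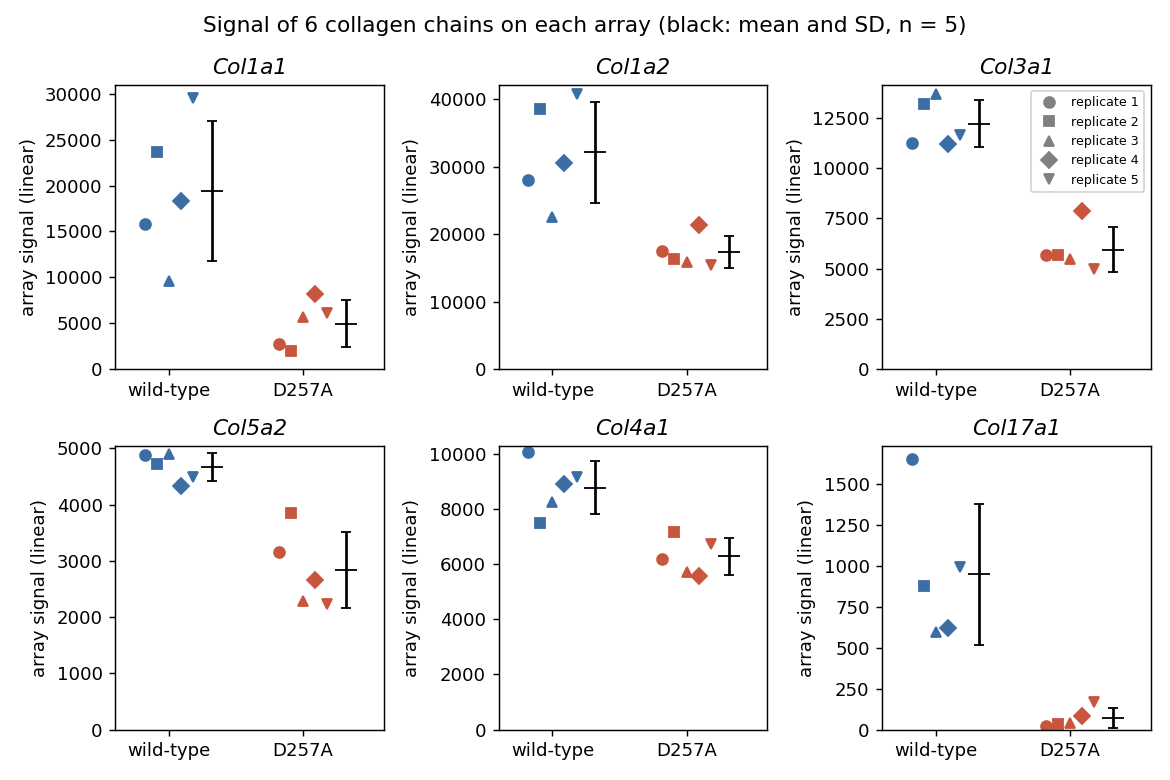
Linear array signal (vertical axes, starting at 0) of 6 collagen chains on each of 5 wild-type (blue) and 5 D257A (red) arrays; marker shapes give the replicate number, and black bars the mean and SD. Each chain is shown by its brightest probe set. No D257A value reaches the wild-type range in any of the 6 panels. Col4a1 was not called and Col17a1 was below the brightness limit of the test.

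Of the remaining fibrillar chains, Col5a1 and Col5a3, also of type V, had log2 fold changes of -0.27 and -0.17 with overlapping groups (limma adjusted p = 0.377 and 0.732). Col27a1, a fibrillar chain that was counted in this class and is also known from developing cartilage, had a positive log2 fold change on its brightest probe set. It measured 4259.4, 3305.3, 4554.4, 4400.6 and 3717.4 in wild-type and 5429.4, 8142.6, 4620.5, 5176.8 and 4987.4 in D257A. Every D257A array was higher, D257A replicate 2 by far the most, yet the log2 fold change of 0.46 (SE 0.18) was not called (limma adjusted p = 0.207), and its other tested probe set was at 0.01. Col24a1 was below the brightness limit. The median over the 7 tested fibrillar chains was -0.742.

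The regions upstream of Col1a2 and Col3a1, which lie on different chromosomes, are shown. They were the called chains with a RefSeq promoter window, and Col1a1 and Col5a2 had none. Of the 42 chains 33 matched a RefSeq promoter window (assembly GRCm38.p6). The 250 bases before each start were searched on both strands for CCAAT (a common promoter box), TATAAA and GGGCGG (the core of an Sp1 site), and no matches overlapped in the windows printed. Capitals mark the matches, and both sequences run 5′ to 3′ on the plus strand, Col1a2 at chr6:4505368-4505617 and Col3a1 at chr1:45311288-45311537.
Col1a2: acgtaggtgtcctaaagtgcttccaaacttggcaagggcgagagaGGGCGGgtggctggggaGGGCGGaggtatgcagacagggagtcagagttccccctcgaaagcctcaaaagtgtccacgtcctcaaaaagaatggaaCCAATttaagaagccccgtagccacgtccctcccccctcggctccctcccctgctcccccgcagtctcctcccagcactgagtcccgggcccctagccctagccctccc
Col3a1: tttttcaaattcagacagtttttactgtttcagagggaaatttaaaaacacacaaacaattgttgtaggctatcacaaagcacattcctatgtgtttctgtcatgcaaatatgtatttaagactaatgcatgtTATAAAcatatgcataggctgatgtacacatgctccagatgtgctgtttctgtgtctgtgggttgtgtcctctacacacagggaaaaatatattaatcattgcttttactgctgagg
The Col1a2 window held GGGCGG at positions -205 and -188 and CCAAT at -109, counted to the first base of the match. The Col3a1 window held only TATAAA, at -117, so the windows shared none of these motifs. Over all 32851 windows of this length, 33.8% held CCAAT, 12.4% TATAAA and 32.7% GGGCGG. Among 36 windows of collagen chains the counts were 13, 5 and 21. Col3a1 and Col5a2 are neighbours on chromosome 1.

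Chains that assemble into 1 protein were set against each other within each array, over 10 pairs with both chains tested. The difference of their log2 signals was compared between genotypes by a two-sided exact permutation test, whose smallest possible p here is 0.00794, with adjustment over the 10 pairs. Col5a2 fell more than Col5a1: the log2 fold change of Col5a1 was higher by 0.474, in 5 of 5 D257A arrays against all wild-type arrays (exact p = 0.00794, adjusted p = 0.0397). Their other tested probe sets differed by 0.488 with an exact p of 0.103. The brightest probe set of Col1a1 fell more than that of Col1a2, with a difference of -1.2 (exact p = 0.00794, adjusted p = 0.0397), but this rests on the probe sets chosen. Between the second-brightest probe sets the difference was 1.04 in the opposite direction (exact p = 0.00794), so no order of the type I chains can be given. Both calls were lost without any 1 of the wild-type arrays or without D257A replicate 2 (6 of 10 cases, adjusted p from 0.0794 to 0.132). In both pairs the genotypes stay apart whichever array is dropped, so these losses did not come with overlap. Dropping any array leaves fewer splits, also where the calls were kept, and the cause of the losses was not tested.

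The other 8 pairs did not pass. The 2 chains of type VIII, a short network collagen made by endothelial cells, had log2 fold changes of 0.60 (Col8a1) and -0.57 (Col8a2), a difference of 1.17 (exact p = 0.0238, adjusted p = 0.0595). Wild-type replicate 3 lay among the D257A values of that pair. Col6a2 and Col6a3 differed by 0.454 (exact p = 0.0238, adjusted p = 0.0595). Here too the probe set matters: the second tested ones had log2 fold changes of -0.45 (Col6a2) and 0.26 (Col8a1), nearer to -0.56 for Col6a3 and -0.57 for Col8a2. Col4a1 and Col4a2, neighbours on opposite strands of chromosome 8, had nearly equal log2 fold changes of -0.48 and -0.47, and their difference was -0.00671 with a pooled SD of 0.323 between arrays (exact p = 0.976). The second tested probe set of Col4a1 was at -0.21 (limma adjusted p = 0.588), so this near match also rests on the probe set chosen.

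**Figure D3:**
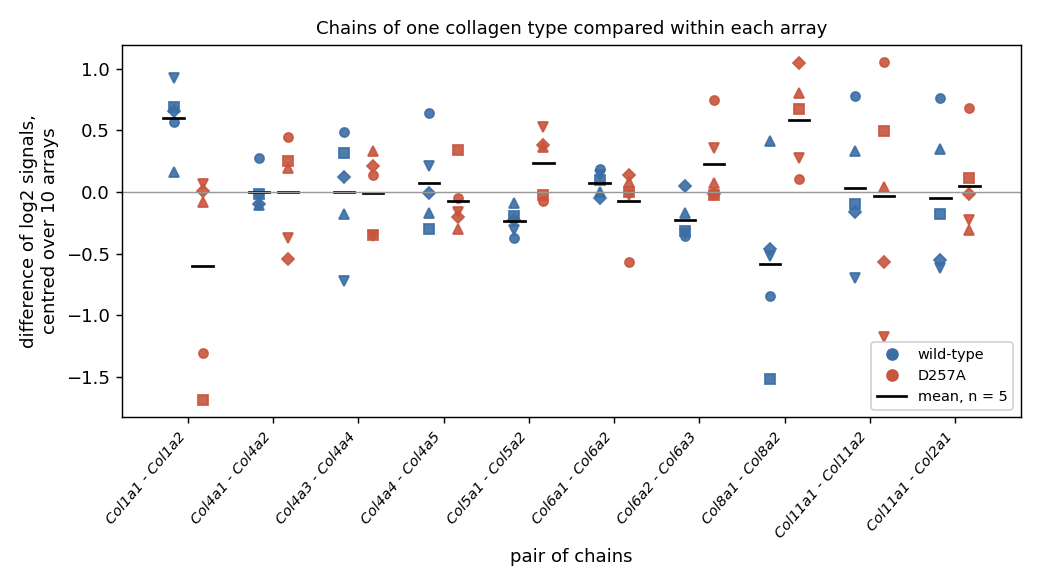
Difference of log2 signals between chains of 1 collagen type (vertical axis, centred over the 10 arrays) for 10 pairs, with each array as a point (wild-type blue, D257A red, shapes by replicate number) and black lines at the means of 5. The genotypes separate for Col1a1 minus Col1a2 and for Col5a1 minus Col5a2 and overlap in the other 8 pairs.

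Cartilage-type chains were not called, and their values scattered among arrays of the same genotype. Col2a1, the chain of type II collagen, measured 1283, 1801, 1138, 2730 and 2094 in wild-type and 1111, 887, 1746, 1368 and 1143 in D257A, with overlapping groups (log2 fold change -0.49, SE 0.26, limma adjusted p = 0.361). Col11a1, which forms the core of type II fibrils, ranged from 1256 to 2021 in wild-type and from 886 to 1654 in D257A (log2 fold change -0.40, adjusted p = 0.372). Col11a2, the brightest of the class, measured 2504, 3366, 2284, 4092 and 4384 in wild-type and 1684, 1348, 2697, 3980 and 4387 in D257A. Its D257A replicates 4 and 5 lay near the highest wild-type arrays while replicates 1 and 2 lay below all of them (log2 fold change -0.34, adjusted p = 0.648). Col9a1 and Col9a3, fibril-associated chains of cartilage and tectorial membrane, stood at 0.05 and -0.06 on the same log2 scale (adjusted p = 0.945 and 0.953). Col9a3 was highest in D257A replicate 5, at 3971.4 against at most 2295.6 in wild-type. Over the 5 tested cartilage chains the median was -0.336.

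All 8 basement membrane chains were tested and none was called, with a median of -0.198. Col4a1, a chain of the type IV network found in most basement membranes, had the smallest p of the class. It measured 10060.5, 7489.6, 8230.5, 8883.4 and 9144.5 in wild-type and 6166.5, 7169.4, 5713.2, 5581.9 and 6726.6 in D257A. All D257A values were below the lowest wild-type value, though D257A replicate 2 only just, and the log2 fold change of -0.48 (SE 0.14) gave a limma adjusted p of 0.102. On the second tested probe set of Col4a1 the groups overlapped (log2 fold change -0.21, adjusted p = 0.588). Col15a1, a collagen that links basement membranes of muscle and vessels to the surrounding matrix, measured 1600, 1820, 1606, 1519 and 1690 in wild-type and 969, 1131, 719, 1290 and 1378 in D257A. These groups did not overlap either (log2 fold change -0.61, SE 0.19, adjusted p = 0.118). The chains of the specialised type IV network, which is mutated in Alport syndrome with its hearing loss, were close to 0. Col4a3, Col4a4 and Col4a5 had log2 fold changes of -0.20, -0.19 and -0.05, each with overlapping groups (adjusted p = 0.751, 0.722 and 0.946). Col4a6 was the chain of this class that leaned higher, from 644 in wild-type to 938 in D257A on average, with a log2 fold change of 0.55 (adjusted p = 0.25). Col18a1, the source of endostatin, ranged from 1180 to 3184 in wild-type and from 1366 to 2631 in D257A (adjusted p = 0.816).

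Type VI collagen forms beaded microfilaments around cells. Col6a3, its longest chain, measured 2854.4, 2747.6, 2805.8, 2275.2 and 2726.1 in wild-type and 1461, 2345, 1532, 2107 and 1762 in D257A. Only D257A replicate 2 reached above the lowest wild-type array, and the log2 fold change of -0.56 (SE 0.17) had a limma adjusted p of 0.112. Col6a2, the brightest chain of the type, measured 5903.7, 5869.1, 6638.7, 6271.3 and 5710.1 in wild-type and 6538.9, 6148.1, 4289.4, 5535.1 and 6023.3 in D257A, with a log2 fold change of -0.10 (adjusted p = 0.779). Col6a1 lay between these, at -0.25 (adjusted p = 0.42), with wild-type signals of 5861, 5481, 5784, 5294 and 5499 and D257A signals of 3849, 5365, 3961, 5325 and 5160. For Col6a1 and Col6a3 alike, D257A replicates 1 and 3 were the lowest arrays of all.

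In type VIII, Col8a1 measured 2588, 2216.1, 5170.2, 3184.3 and 2837.8 in wild-type and 3572.8, 5897.2, 4039.3, 5807.2 and 4437.9 in D257A (limma adjusted p = 0.208). Wild-type replicate 3 alone reached the D257A range. Col8a2 measured 2404, 3284, 1991, 2264 and 2100 in wild-type and 1703, 1898, 1182, 1434 and 1880 in D257A, without overlap (SE 0.19, adjusted p = 0.151). Among fibril-associated chains, which coat the surface of fibrils, Col14a1 measured 2167.5, 2086.5, 2194.5, 1903 and 1610.2 in wild-type and 1215.8, 1428.7, 1461.5, 1941.2 and 1527.4 in D257A, so that only D257A replicate 4 rose into the wild-type range (log2 fold change -0.40, adjusted p = 0.25). Its second tested probe set was at -0.01 with overlapping groups (adjusted p = 0.982). Col12a1 had a log2 fold change of -0.38 (adjusted p = 0.323), with 1063, 1496.1, 1616.9, 1369 and 1477.1 in wild-type and 993.5, 826.2, 1124.5, 1082.2 and 1384.3 in D257A. Col16a1, the brightest fibril-associated chain, ranged from 1498 to 2525 in wild-type and from 1625 to 2601 in D257A and had a log2 fold change of 0.01 (adjusted p = 0.982). The transmembrane chains Col23a1 and Col25a1 overlapped as well: Col23a1 ranged from 719 to 1040 and from 655 to 1070 (-0.05, adjusted p = 0.932), and Col25a1, a neuronal collagen, from 429 to 1010 and from 789 to 1334 (0.50, adjusted p = 0.362).

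**Figure D4:**
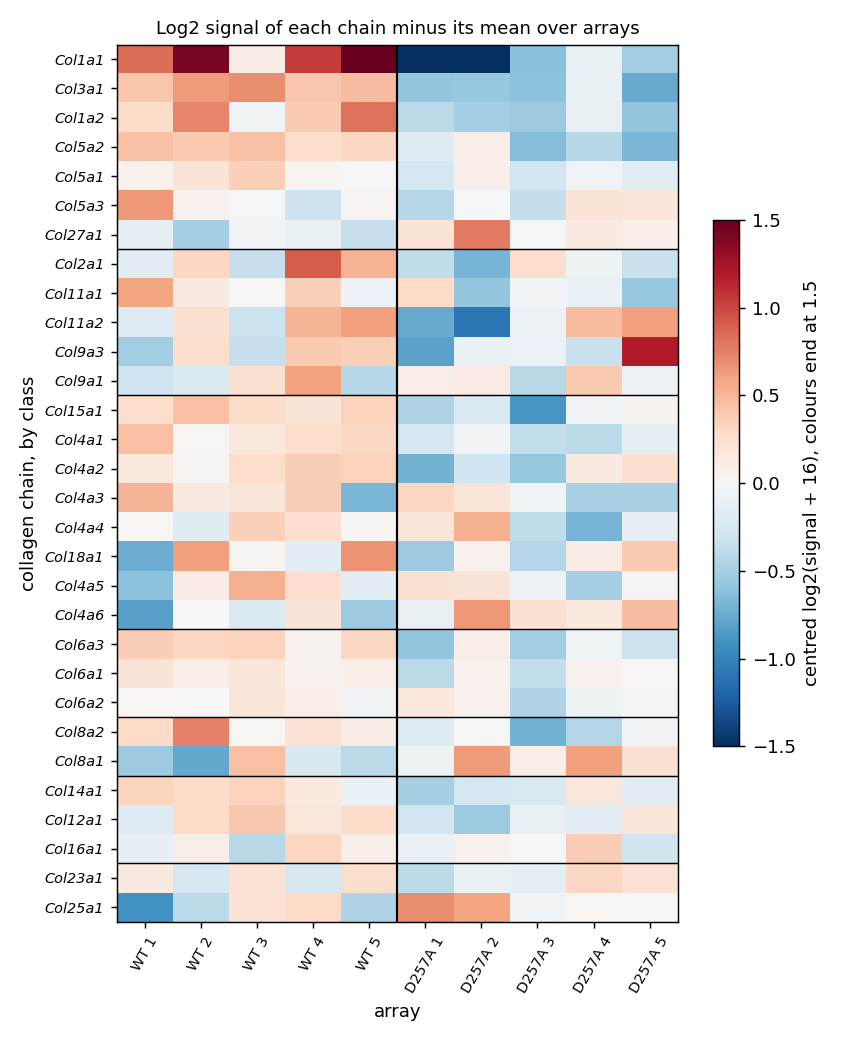
Log2(signal + 16) of each of the 30 tested chains minus its mean over the 10 arrays (colour, red higher and blue lower), with arrays as columns and chains as rows grouped by class. The fibrillar rows at the top, Col1a1 to Col5a2, are mostly red in the 5 wild-type columns and mostly blue in the 5 D257A columns, and rows of the cartilage class are mixed in both.

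The 12 chains below the brightness limit included the widest difference of all. Col17a1, the hemidesmosomal collagen that anchors basal epithelial cells to their basement membrane, measured 1650.3, 875.7, 594.8, 621.9 and 992.1 in wild-type and 23.6, 36.1, 41.6, 81.2 and 168.5 in D257A. The groups were far apart, with wild-type replicate 1 highest. It was singled out after its values were seen. In the fit without the brightness limit it was called (log2 fold change -3.61, SE 0.44, limma adjusted p = 0.00243). In that fit 5 of 42 chains were called lower and none higher, against 1.05% and 0.451% of all 18193 genes. Whether the D257A signals exceed background is unknown, which leaves the size of the fall uncertain. Krt5, a keratin of basal epithelial cells, was lower too. It measured 8481.9, 4324.9, 3168.5, 3367.6 and 5198.4 in wild-type, with replicate 1 again highest. Its D257A signals were 627.6, 1134, 875.1, 1145.2 and 1135.9 (limma adjusted p = 0.00207 in the fit with the limit). Whether the signals of Col17a1 and Krt5 came from the same cells was not tested. Col22a1, a collagen of the muscle-tendon junction, measured 486.1 to 633.6 in wild-type and 174.4 to 350.4 in D257A and was not called (log2 fold change -0.94, adjusted p = 0.0952 without the limit). Col9a2 had a log2 fold change of -1.17, with 42.4 in D257A replicate 2 against 441.6 to 724.3 in the other D257A arrays (adjusted p = 0.331 without the limit). The other 9 dim chains were Col24a1, Col10a1, Col6a4, Col6a5, Col7a1, Col19a1, Col20a1, Col13a1 and Col26a1, and none of these was called.

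Several chains had more than 1 probe set, and these did not always tell the same story. The 42 chains had 82 probe sets, of which 46 were tested, and 16 chains had several tested probe sets. In 12 of these all tested probe sets had the same sign, and in 4 (Col5a1, Col9a3, Col4a5 and Col12a1) they did not. For Col1a1 the second probe set measured 9799, 8669.8, 9016.1, 9754.9 and 6201.8 in wild-type and 8770.2, 6618.5, 5215.2, 5250.7 and 3923.1 in D257A, an overlap between wild-type replicate 5 and D257A replicates 1 and 2 (log2 fold change -0.58, limma adjusted p = 0.192). For Col1a2 the second probe set showed the larger fall, from 17946.4, 24015, 19251.7, 17002.5 and 22268.8 in wild-type to 9238.5, 5570.3, 8107, 5544.2 and 4970.6 in D257A (log2 fold change -1.62, SE 0.19, adjusted p = 0.002). Its groups lay far apart. The second probe set of Col5a2 had a log2 fold change of -0.42 (adjusted p = 0.339), and that of Col3a1, below the limit, -0.64. Those of Col12a1 had opposite signs, at -0.38 and 0.68 (adjusted p = 0.323 and 0.0911), and the second one of Col27a1 was at 0.01 (adjusted p = 0.985) with overlapping groups. When all probe sets of a chain were averaged, Col1a1, Col1a2 and Col3a1 remained called and Col5a2 did not (adjusted p = 0.109).

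**Figure D5:**
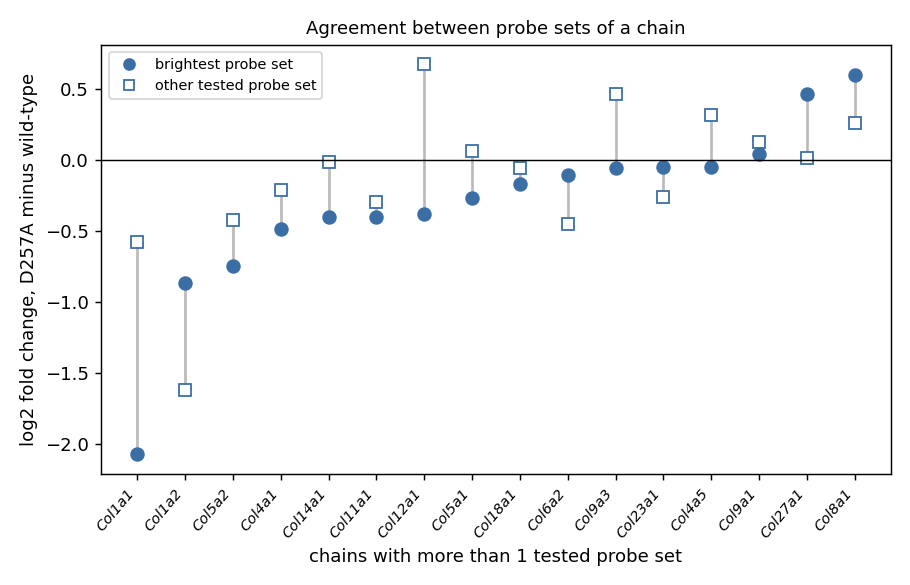
Log2 fold change (D257A minus wild-type, vertical axis) of each tested probe set for the 16 chains that have more than 1, with the brightest probe set filled and the other one open. The probe sets of Col1a1 lie at -2.07 and -0.58, those of Col1a2 at -0.87 and -1.62, and those of Col12a1 on opposite sides of 0.

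Genes that make collagen were not called as individuals. Of 40 listed genes for hydroxylation, folding, export, trimming and cross-linking, 30 were tested and none was called by limma. At an unadjusted p under 0.05 with a fold change over 1.1, 6 were lower and none higher, against 10.2% and 6.49% of all tested genes. Of the 30, 22 were negative and the median log2 fold change was -0.115. The nearest was Pxdn, the peroxidase that cross-links type IV collagen, at 1943.3, 1779.5, 1893.2, 1693.1 and 1695.6 in wild-type and 1230.4, 1232.4, 1404.2, 1253.1 and 1330.6 in D257A. The groups were clearly apart (log2 fold change -0.48, SE 0.14, limma adjusted p = 0.0974). Crtap, a partner of prolyl 3-hydroxylation, and P4ha2, a prolyl 4-hydroxylase subunit, were nearest among the hydroxylation genes (log2 fold change -0.48 and -0.52, adjusted p = 0.109 and 0.136). Serpinh1, the collagen chaperone of the endoplasmic reticulum, measured 7943 ± 2139 and 5233 ± 2188 (SD, n = 5 each, limma adjusted p = 0.319). Tmem38b, next by p among the 9 tested chaperone and export genes, was the 1 positive gene there, at 0.35 (adjusted p = 0.357). Creb3l1, a transcription factor that activates type I collagen in bone, had -0.37 (adjusted p = 0.363). Bmp1, the protease that removes the C-terminal propeptide, had -0.94 (SE 0.33, adjusted p = 0.161), and its enhancer Pcolce had 0.23 (adjusted p = 0.598). The cross-linking oxidases Lox and Loxl1 had -0.06 and -0.46 (adjusted p = 0.914 and 0.297).

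Receptors and basement membrane partners held no called gene either. Among 6 tested collagen receptors 5 were negative with a median of -0.436. Mrc2, which takes up collagen for breakdown, had a log2 fold change of -0.73 and the kinase receptor Ddr1 0.69 (limma adjusted p = 0.208 and 0.224). Among 11 tested laminin, nidogen, perlecan and agrin genes the median was -0.0795. Lamc1, a laminin chain of most basement membranes, had -0.67 (adjusted p = 0.0848) and Lamc3 0.60 (adjusted p = 0.122).

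Markers of other cell types differed between the same samples. The summed signal of 24 skeletal muscle markers ranged from 247400 to 708200 in wild-type and from 29850 to 349400 in D257A. Of 21 tested, 8 were called lower, where the share over all tested genes was 1.66%. The part of muscle in the collagen values was not tested. The sum of 18 epithelial and gland markers was 208800 to 497700 in wild-type and 82960 to 128700 in D257A, without overlap. Of 15 tested, 8 were called lower, against the same share of 1.66%. Among those called, Muc5b, Krt14, Tff2 and Gp2 had D257A means of 230.8, 348.2, 278.3 and 331, below the brightness limit of about 577. They were tested through their wild-type signals. The part of epithelium and glands in the collagen values was not tested. Adipocyte markers summed to 105900 to 162000 and 51500 to 150900, with 3 of 8 tested called lower, and their part was not tested. No marker was listed at 0. Myh2, a fast muscle myosin, measured 6820.2 to 31142.9 in wild-type and 18 to 486.4 in D257A. Its D257A mean of 143.4 also lay below the brightness limit.

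Markers of the cells that make fibrillar collagen were read beside these values. Of 11 tested fibroblast markers other than collagens, 9 were negative, the median was -0.339, and Dpt (dermatopontin, a small matrix protein that binds fibrils) was called lower, with a log2 fold change of -1.14 between means of 3640 ± 963.6 and 1611 ± 229.8 (SD, n = 5 each; limma adjusted p = 0.0127). Of the others, Pi16 was at -1.13, Mfap5 at -0.83, Lum at -0.75 and Thy1 at -0.48 (adjusted p = 0.232, 0.121, 0.26 and 0.186), each with an unadjusted p under 0.05. Dcn, an abundant fibroblast proteoglycan, measured 42700 ± 4848 and 39070 ± 6553 (adjusted p = 0.695) and Pdgfra 4164 ± 892.5 and 3953 ± 1332 (adjusted p = 0.861). Of 6 tested markers of bone-forming cells none was called, 4 were negative and the median log2 fold change was -0.16. Phex, which had the smallest p of this list, was at -0.55, Ibsp at 0.44 and Sp7 at -0.02 (adjusted p = 0.254, 0.259 and 0.974). The summed signals of the list overlapped (11410 to 13810 and 9691 to 15880). Of 8 tested cartilage markers 2 were called lower, Comp and Cytl1 (log2 fold change -1.36 and -1.33, adjusted p = 0.0232 and 0.0103), and 4 were positive. Endothelial markers summed to 16840 to 21570 and 12810 to 20770 with none of 8 tested called. Schwann cell markers summed to 128600 to 153900 in wild-type and 159600 to 165200 in D257A, a sum in which Mbp, a myelin protein gene, had means of 69850 and 92130. Their median log2 fold change was 0.0415 over 7 tested, Egr2 was called higher (0.75, adjusted p = 0.0279) and Sox10 was at -0.57 (adjusted p = 0.23). Neutrophil genes leaned higher: 11 of the 12 tested had positive log2 fold changes, and the median of this list was 0.88. Of the 12, 2 were called higher and 1, Ltf, was called lower (-2.11, adjusted p = 0.0306). Their sums overlapped, at 111300 to 186900 in wild-type and 112000 to 323400 in D257A. For comparison, 1.66% of all tested genes were called lower and 0.657% higher. The part of these markers in the collagen values was not tested.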

How the data were processed

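The deposited values are linear array intensity, 1 per probe set and array, which the authors made with GCOS 1.3 (submitters' processing notes). How background and scale were set is not given in the sources used here. Of 45101 probe sets, 64 controls, filled on 1 array only, were left out. Of the remaining 45037, 34945 had 1 gene in the platform annotation, 932 several and 9160 none. Signals were taken as log2(signal + 16), which understates changes of dim genes. The 22518 brighter probe sets (a share of 0.5, by mean over the 10 arrays) entered limma 3.58.1, run in R 4.3.3 (group as the only term, intensity trend, 8 residual degrees of freedom, two-sided), with Benjamini-Hochberg adjustment at 0.05 over all tested probe sets; limma gave every adjusted p not named as exact. Scripts were tested on simulated data. Named chains are those called and, per class, the brightest and the 2 with the smallest p. Members and lists were chosen with earlier results of these data known. Alternatives were other pseudocounts (1, 64), scalings, filters, weights, thresholds, probe sets, a replicate block and arrays left out. No scan dates or detection calls were used, so no batch was tested and the number of arrays limits the precision.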

Additional observations from a re-analysis of the deposited data

Results flagged for a closer look

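Among 38 groups of 5 arrays (19 named chains in both genotypes), 2 held a sample set apart from the others by more than 0.71 of the group's range (Dixon's criterion), where chance alone finds one in about 1 in 20 groups. Col3a1 in D257A replicate 4 measured 7884.4, with the next D257A value at 5700.8, and without that array the log2 fold change of Col3a1 was -1.15. Col6a3 in wild-type replicate 4 measured 2275.2, below the next wild-type value of 2726.1.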

How the results depend on the processing

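The 4 calls among collagen chains held with pseudocounts of 1 and 64, with arrays centred on their medians, for the brightest 30% of probe sets and without wild-type replicate 3 and D257A replicate 2. Counts of chains called lower were 7 with array weights (adding Col15a1, Col6a3 and Col8a2), 1 at an adjusted p under 0.01, 10 with the design text's cut-offs (which also gave 3 higher) and 1 to 4 when single arrays were left out. Of all tested genes 438 were called lower with array weights, 39 at an adjusted p under 0.01 and 1207 with the design text's cut-offs. With single arrays left out the range was 75 to 197. Col5a2 alone lost its call with quantile normalization (adjusted p = 0.065), without the intensity trend (0.0514) and with the mean over probe sets (0.109). Same-numbered arrays did not all deviate together (r from -0.337 to 0.183, 3 of 5 over 0.1, 1 of 5 best with its own number), and the labels give the numbers no shared source, so samples were taken as unpaired. With the replicate block 1 chain was called lower, Col3a1 (adjusted p = 0.0407), while Col1a1 (0.0512), Col1a2 (0.0833) and Col5a2 (0.102) were not, and 82 genes lower and 31 higher in place of 197 and 78. The block was not run for chain pairs, where 5 sign flips cannot give a p under 0.0625. Biosynthesis genes called lower were 1 with median centring, 1 with array weights, 1 at a threshold of 0.1 and 6 with the design text's cut-offs.

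Without the brightness limit, class medians were -0.505 for fibrillar, -0.392 for types VII and VIII (0.0184 with it), -0.181 for fibril-associated and -0.0475 for transmembrane chains (0.227 with it), since dim chains enter. The fibril-associated median was -0.192 over the brightest 30%, 0.0142 with the mean over probe sets and -0.406 to -0.143 with single arrays left out, where that of types VII and VIII was -0.285 to 0.0973. Without wild-type replicate 3 and D257A replicate 2 the pair differences were -1.04 for Col1a1 minus Col1a2 and 0.576 for Col5a1 minus Col5a2 (adjusted p = 0.0952 for both, where fewer splits make the smallest possible exact p larger), and 0.0324 for Col4a3 minus Col4a4. With the second-brightest probe sets, chosen after seeing the data, they were 1.04 and 0.488, and Col12a1 was 0.678 (0.317 with the mean over probe sets). With single arrays left out, differences ranged from -1.37 to -0.93 (Col1a1 minus Col1a2), 0.400 to 0.552 (Col5a1 minus Col5a2), -0.119 to 0.128 (Col4a1 minus Col4a2), -0.189 to 0.113 (Col4a3 minus Col4a4), -0.333 to 0.228 (Col11a1 minus Col11a2) and -0.0627 to 0.298 (Col11a1 minus Col2a1). Col16a1 was -0.0865 with median centring, -0.0962 with array weights, -0.104 without both arrays and -0.0889 to 0.0977 with single arrays left out. Col23a1 was 0.0192 without both arrays and -0.13 to 0.0433 with single arrays left out. For the values that moved or turned, beyond the dim chains and the fewer samples, the cause was not tested. The number of arrays and unknown detection of dim probe sets limit these values.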
